A study of Oryza sativa with 6 samples.

Results

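The annotation of the rice genome (Oryza sativa, cultivar Nipponbare) that underlies this comparison holds, beside its chromosomal loci, gene predictions on sequence that was not placed on any of the 12 chromosomes. In the table of the comparison these are the rows whose name is not a chromosomal locus identifier. There were 41 such rows among 30020, of which 27 carried names beginning with ChrSy.fgenesh.gene and 14 carried names beginning with ChrUn.fgenesh.gene. The other 29979 rows were chromosomal loci. The predictions are called Sy or Un followed by their number, so that Sy.21 stands for ChrSy.fgenesh.gene.21. Neither position nor function is given for any of them in the sources used here.

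The seedlings were 30 days old. They had spent 10 days on half-strength medium and 20 days on full medium, at 30 °C during the light period of 14 h and at 28 °C during the dark period of 10 h. The 6 libraries came from 3 oschz1 and 3 wild-type samples. The oschz1 plants of this comparison carried a single mutant allele, oschz1-1, a small CRISPR/Cas9 deletion in an exon of OsChz1 that brings in a premature stop codon. RNA of a sample came from several seedlings together, and the study calls the 3 samples of a genotype biological replicates. The labels do not say whether they were grown apart. The p-values below set each difference against the spread between these samples as the authors' fit estimated it. OsChz1 itself was not matched to a row of the table, so that no value is given for it.

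OsChz1 is named for the CHZ domain, which marks its family of histone chaperones, and it binds dimers of H2A or H2A.Z with H2B. Histone chaperones escort histones to and from DNA, and the H2A.Z-H2B dimer bound by this family belongs to nucleosomes often found near the start of genes. A name with fgenesh marks a gene model that a computer program proposed from the DNA sequence alone, from patterns of coding sequence, splice sites and gene ends, so that a model need not correspond to a transcribed gene. Sequence often stays unplaced in an assembly because it is repeated. The libraries were made from poly(A)-selected RNA, and the authors kept reads that aligned to 1 place. A prediction with a close copy elsewhere in the genome is therefore measured by the reads that set it apart.

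Facts of the whole table bear on what follows. Of all rows, 25945 had an adjusted p (from the DESeq2 Wald test, two-sided, adjusted by Benjamini and Hochberg), and each of these had a mean normalized count of at least 1.79, the mean of the 6 libraries after division by size factors. A row was called where the fold change was at least 1.5 and the adjusted p at most 0.05, and calls of either direction made up 7.58% of the tested rows. Positive log2 fold changes mean a higher level in oschz1. The green-tissue genes LOC_Os12g19470 (a small subunit of Rubisco), LOC_Os09g17740 and LOC_Os01g52240 (proteins of the light-harvesting antenna) had mean normalized counts of 23023, 227551 and 11869, while the seed glutelin gene LOC_Os01g55690 was at 0.419.

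Most predictions were at the low end of what these seedlings contained. The median of the mean normalized counts was 3.64 over the 41 predictions, against 155 over the chromosomal loci. No row held fewer than 2 reads, so that both medians cover only models that were detected. The predictions spanned 0.210 to 2141, and the medians of the 12 chromosomes taken one by one lay between 58.7 and 270.3, each above the median of the predictions. These counts are not divided by the length of the gene model, which was not used here, so that they rank rows by reads and not by transcripts.

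The levels fell into separate ranges, with a gap between 11.7 and 63.6. Below the gap were 30 predictions, between 12 and 200 were 2, and 9 were at 200 or above. Those 9 held 96.3% of the summed mean of the predictions, and Un.96 alone held 31.6%. Of the predictions, 22.0% had a mean of 200 or more, against 46.3% of the chromosomal loci, and 29.3% had a mean of 10 or more, against 75.0%. The predictions together made up 0.0287% of the summed mean normalized counts of the table, which came to 2.37e+07.

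**Figure D1:**
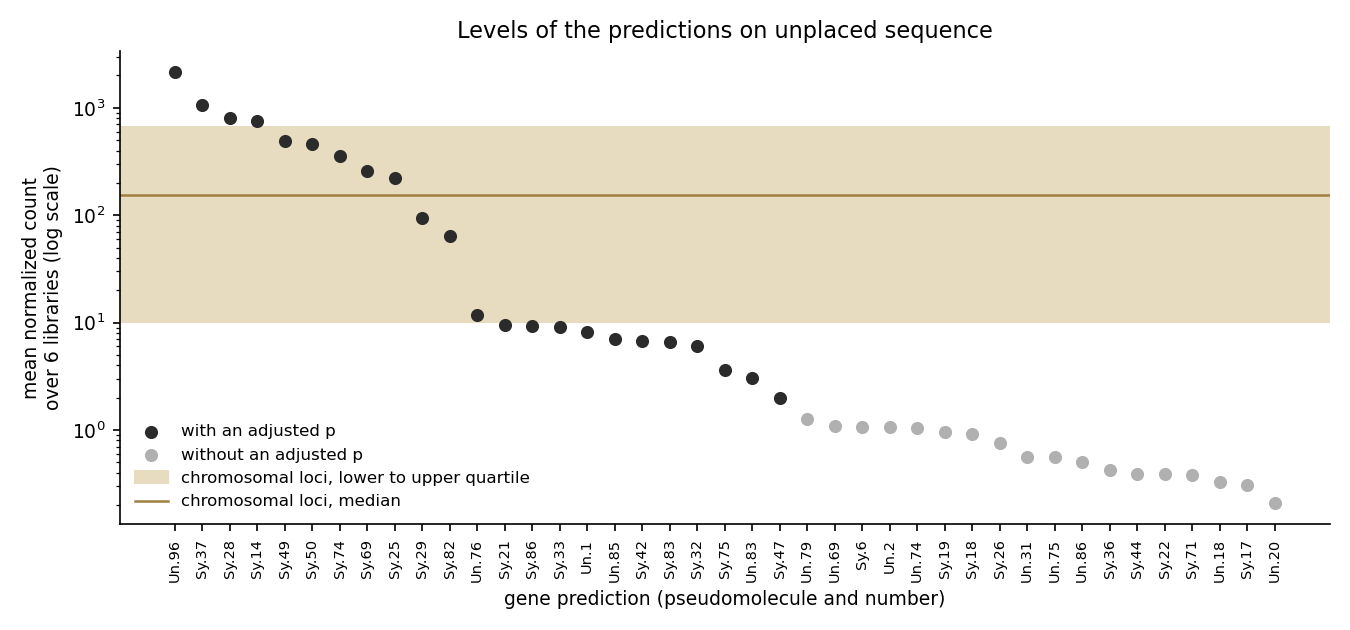
Mean normalized count over the 6 libraries (log scale) of each of the 41 predictions, ranked from the highest to the lowest, with the median of the chromosomal loci as a line and their lower to upper quartile (10.0 to 666) as a band. The 11 predictions with a mean of at least 50 stand apart from the other 30, of which 29 lie below the band.

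Both kinds of unplaced sequence spanned a wide range of means, from 0.308 to 1052 for Sy and from 0.210 to 2141 for Un. The high levels were mostly those of Sy predictions. A mean of at least 50 was found for 10 of the 27 Sy predictions, against 1 of the 14 Un predictions. The upper quartile of the means was 240 for Sy and 6.08 for Un. The median was 6.72 for the 27 Sy predictions and 1.09 for the 14 Un predictions. An adjusted p was given for 18 Sy and 5 Un predictions, and 9 of each had none. In all, 56.1% of the predictions were tested, against 86.5% of the chromosomal loci, where the 12 chromosomes ranged from 80.7% to 90.7%.

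Among the 23 tested predictions, 1 was called higher in oschz1 and 1 was called lower. Over all tested rows the share called higher was 6.24% and the share called lower 1.34%. The called share of the predictions, 8.70%, was close to the 7.58% of all tested rows. The adjusted p alone was passed by the same 2 predictions, 8.70% of those tested, against 18.1% of the chromosomal loci. An unadjusted p under 0.05 was found for 3 predictions, 13.0%, against 27.0% of the chromosomal loci. These shares are not matched for level or error. The SE was small enough for a 1.5-fold difference to pass in 39.1% of the tested predictions, against 65.6% of the tested chromosomal loci. Fitted fold changes were above 0 for 12 of the 23 and below 0 for 11, and the median log2 fold change was 0.02 over the tested predictions, against -0.005 over the tested chromosomal loci.

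Sy.74 was called lower in oschz1. Its mean normalized count was 359, above that of 63.2% of the chromosomal loci. The log2 fold change was -1.07 ± 0.12 (SE, 3 libraries per genotype), with an adjusted p of 1.09e-16 in the DESeq2 Wald test and a 95% interval of -1.31 to -0.83. The deposited mean and fold change together give a level of 232 in oschz1 and 486 in wild-type, which is 2.10-fold lower in oschz1.

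Falls of this size were rare among chromosomal loci of like level. Sy.74 is described because it was called, so that the shares below place it and are no test. Of the 1116 tested chromosomal loci with a mean within 10% of that of Sy.74, 0.269% had a fold change at least as low. Among the tested chromosomal loci with means from 200 up to 1000, 1.03% were called lower in oschz1. The SE of Sy.74 was 0.122, against a median of 0.116 over the loci of like level. Levels of single libraries could not be had for Sy.74, so that whether the genotypes overlap was not tested.

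Sy.21 was called higher in oschz1, from few reads. The deposited means allow the whole reads of each library to be read back where the mean is low, which is described under the processing. The 3 oschz1 libraries held 24, 15 and 15 reads of Sy.21, against 1, 1 and 1 in the wild-type libraries, with the libraries of each genotype given from the largest size factor to the smallest. Those size factors were 1.49, 1.19 and 0.596 for oschz1 and 1.59, 0.820 and 0.738 for wild-type.

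Divided by the size factors, Sy.21 stood at 16.1, 12.6 and 25.2 in oschz1, against 0.629, 1.22 and 1.36 in wild-type. The genotypes did not overlap, and the lowest oschz1 library was far above the highest wild-type library. Its log2 fold change was 4.17 ± 1.01 (SE, 3 libraries per genotype), with an adjusted p of 4.23e-04 in the DESeq2 Wald test. The summed reads give a ratio of 17.3 with a 95% exact (Clopper-Pearson) interval of 5.60 to 86.3. Such intervals cover counting error only, and reads of amplified libraries need not be separate molecules.

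The size of the Sy.21 difference rests on 3 wild-type reads. Without single libraries, the log2 ratio of depth-corrected reads ran from 3.75 to 4.28. Its sign could not change, since the genotypes did not overlap. Of 422 tested chromosomal loci with a mean within 10% of that of Sy.21, 1.18% had a fold change at least as high. Sy.21 too was picked for its call, so that this share is no test. Its SE of 1.01 was above that of 98.3% of those loci, whose median SE was 0.666. The mean of Sy.21 was 9.51, so that a minimum mean of 10 would have removed it from the test.

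**Figure D2:**
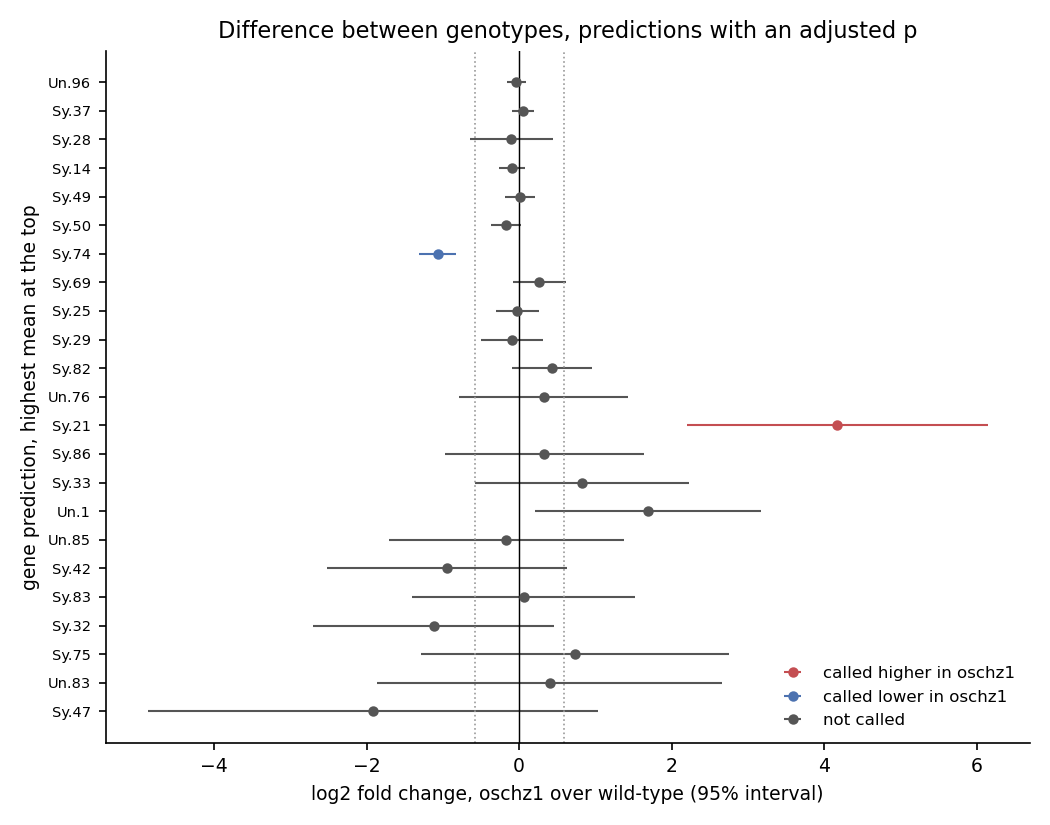
Log2 fold change of oschz1 over wild-type with its 95% interval for the 23 tested predictions, ordered by mean normalized count with the highest at the top, and 1.5-fold either way as dotted lines. Sy.74 lies to the left of the lines and Sy.21 to the right with their whole intervals, and the intervals of the predictions at the bottom are wide.

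The predictions with most reads other than Sy.74 gave no call, and for most of them the data bound the difference closely. Of the 11 predictions with a mean of at least 50, 10 were not called, with log2 fold changes from -0.17 to 0.44 and a lowest adjusted p of 0.252. For 7 of the tested predictions the whole 95% interval lay within 1.5-fold either way. These were Un.96, Sy.37, Sy.14, Sy.49, Sy.50, Sy.25 and Sy.29.

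Un.96 had the highest mean of the predictions, 2141, above that of 92.6% of the chromosomal loci, and its deposited values give 2113 in oschz1 and 2170 in wild-type. Its log2 fold change was -0.04 ± 0.06 (SE), with a 95% interval of -0.16 to 0.09. Sy.37, at a mean of 1052, stood at 1071 in oschz1 and 1034 in wild-type on the same reckoning, with a log2 fold change of 0.05 ± 0.07 (SE). The intervals of both lay within 1.5-fold either way.

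Sy.14 stood at 730 in oschz1 and 781 in wild-type, with a 95% interval of the log2 fold change from -0.27 to 0.08. Sy.25 stood at 219 in oschz1 and 223 in wild-type, with an interval of -0.30 to 0.26. Sy.50 had the lowest adjusted p among these, 0.252 in the DESeq2 Wald test, at 433 in oschz1 and 488 in wild-type. Its log2 fold change was -0.17 ± 0.10 (SE). Sy.49, the prediction numbered just before it, stood at 489 in oschz1 and 483 in wild-type, so that these neighbours by number had like levels.

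Sy.29 was the prediction with the highest mean for which reads could be read back, and for it alone 2 sets of reads gave the deposited values. The set with the more even levels within each genotype was used, so that its small spread is partly a matter of this choice. In that set it held 151, 103 and 50 reads in oschz1, against 159, 69 and 80 in wild-type. Divided by the size factors, these became 101, 86.3 and 83.9 in oschz1 and 100.1, 84.2 and 108 in wild-type. In that set the genotypes overlapped. The deposited log2 fold change, which does not depend on the choice, was -0.10 ± 0.21 (SE).

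For 3 further predictions of this range the interval reached past 1.5-fold. Sy.28 had a mean of 797 and a log2 fold change of -0.10 ± 0.28 (SE), with an interval of -0.65 to 0.44. Its SE was 3.30 times the median of the 1088 tested chromosomal loci with a mean within 10% of its own, and 99.8% of those loci had a lower SE. Sy.69, at a mean of 259, had a log2 fold change of 0.26 ± 0.18 (SE), and 99.4% of the 966 loci of like level had a lower SE. The spread between libraries that the fit estimated was thus larger for these 2 predictions than for most loci with as many reads, and which libraries it came from was not tested, since their reads could not be read back.

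Sy.82 held 96, 115 and 34 reads in oschz1, against 83, 49 and 38 in wild-type. The test of the reading back on simulated data, described under the processing, did not cover a mean this high. The depth-corrected levels were 64.4, 96.3 and 57.1 in oschz1 and 52.2, 59.8 and 51.5 in wild-type. The genotypes overlapped, and 1 oschz1 library was well above the other 5. Set against its error, the log2 fold change of 0.44 ± 0.27 (SE) did not pass, with an adjusted p of 0.303 in the DESeq2 Wald test. Without that library the log2 ratio of depth-corrected reads was 0.16, against 0.41 with all 6.

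**Figure D3:**
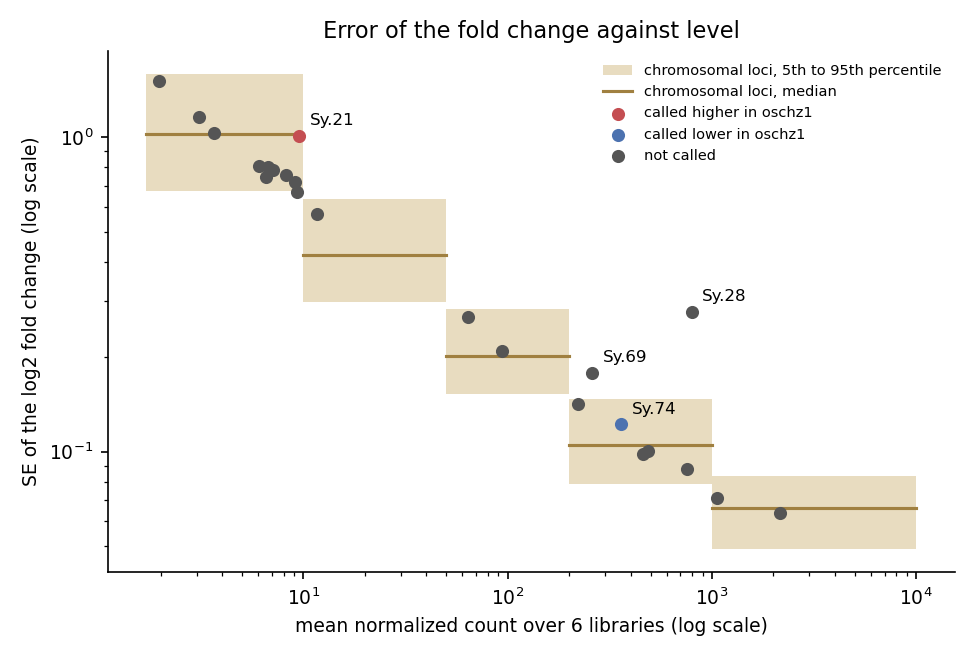
SE of the log2 fold change against the mean normalized count (both log scales) for the 23 tested predictions, with the median and the 5th to 95th percentile of the chromosomal loci in 5 ranges of the mean as lines and bands. Sy.28 lies far above the band of its range, where the median SE is 0.105, and Sy.69 above it, while most of the others lie within the bands.

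The remaining 12 tested predictions, Sy.21 among them, had means from 1.97 to 11.7 and rested on 15 to 76 reads over the 6 libraries. Their SEs ran from 0.57 to 1.51 on the log2 scale. With these errors, and at the unadjusted p that the adjusted p required, a fold change of 2.79 to 15.2 in either direction was needed to pass. Smaller differences could not pass with these errors. Genotypes that did not overlap were found for 3 of the 12, 25%, against 22% of the tested rows of the table with a mean under 12.

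Those 3 were Sy.21, Un.1 and Sy.32. Un.1 held 9, 20 and 9 reads in oschz1, against 6, 2 and 4 in wild-type, or 6.04, 16.7 and 15.1 in oschz1 and 3.78, 2.44 and 5.42 in wild-type after division by the size factors. The lowest oschz1 library was only slightly above the highest wild-type library. Its log2 fold change was 1.69 ± 0.76 (SE), and the adjusted p was 0.112 in the DESeq2 Wald test. The fold change was 3.22 where 3.93 was needed to pass, and the ratio of summed reads was 3.04 with an exact 95% interval of 1.55 to 6.38.

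Sy.32 was lower in each oschz1 library than in any wild-type library. It held 6, 5 and 2 reads in oschz1, against 19, 5 and 5 in wild-type, or 4.03, 4.19 and 3.36 in oschz1 and 11.96, 6.10 and 6.78 in wild-type after division. The log2 fold change was -1.12 ± 0.81 (SE), with an adjusted p of 0.410 in the DESeq2 Wald test. The ratio of summed reads was 0.430 with an exact 95% interval of 0.205 to 0.854.

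Sy.33, next to Sy.32 by number, had the opposite sign. It held 18, 4 and 12 reads in oschz1, against 10, 5 and 5 in wild-type, and after division it spread over 12.1, 3.35 and 20.1 in oschz1 and 6.29, 6.10 and 6.78 in wild-type. The oschz1 libraries lay on both sides of the wild-type libraries, which were nearly equal. The log2 fold change was 0.83 ± 0.72 (SE), with an adjusted p of 0.523 in the DESeq2 Wald test.

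Sy.47 and Sy.42 had fitted fold changes below 0 that did not pass. Sy.47 held 1, 2 and 0 reads in oschz1, against 9, 2 and 1 in wild-type, and its log2 fold change was -1.92 ± 1.51 (SE). Sy.42 held 4, 4 and 5 reads in oschz1, against 9, 11 and 5 in wild-type, and the fitted log2 value was -0.95 ± 0.80 (SE). In both the genotypes overlapped. Without single libraries, the log2 ratio of depth-corrected reads ran from -3.23 to -1.28 for Sy.47 and from -1.51 to -0.37 for Sy.42. Sy.75 held 4, 7 and 3 reads in oschz1, against 3, 3 and 2 in wild-type, and its log2 fold change of 0.74 ± 1.03 (SE) was smaller than its error.

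The 5 tested predictions not yet described were Un.76, Sy.86, Sy.83, Un.85 and Un.83. Un.76 had the highest mean of the 12, 11.7, and held 19, 14 and 9 reads in oschz1, against 20, 7 and 7 in wild-type. Sy.86 held 11, 12 and 8 reads in oschz1, against 7, 10 and 6 in wild-type. Sy.83 held 9, 9 and 4 reads in oschz1, against 12, 5 and 4 in wild-type. In these 3 every library had reads and the genotypes overlapped. Un.85 held 7, 14 and 2 reads in oschz1, against 15, 2 and 8 in wild-type. Un.83 held 8, 4 and 1 reads in oschz1, against 5, 4 and 0 in wild-type. The log2 fold changes of the 5 lay between -0.17 for Un.85 and 0.40 for Un.83, with SEs larger than the fold changes.

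**Figure D4:**
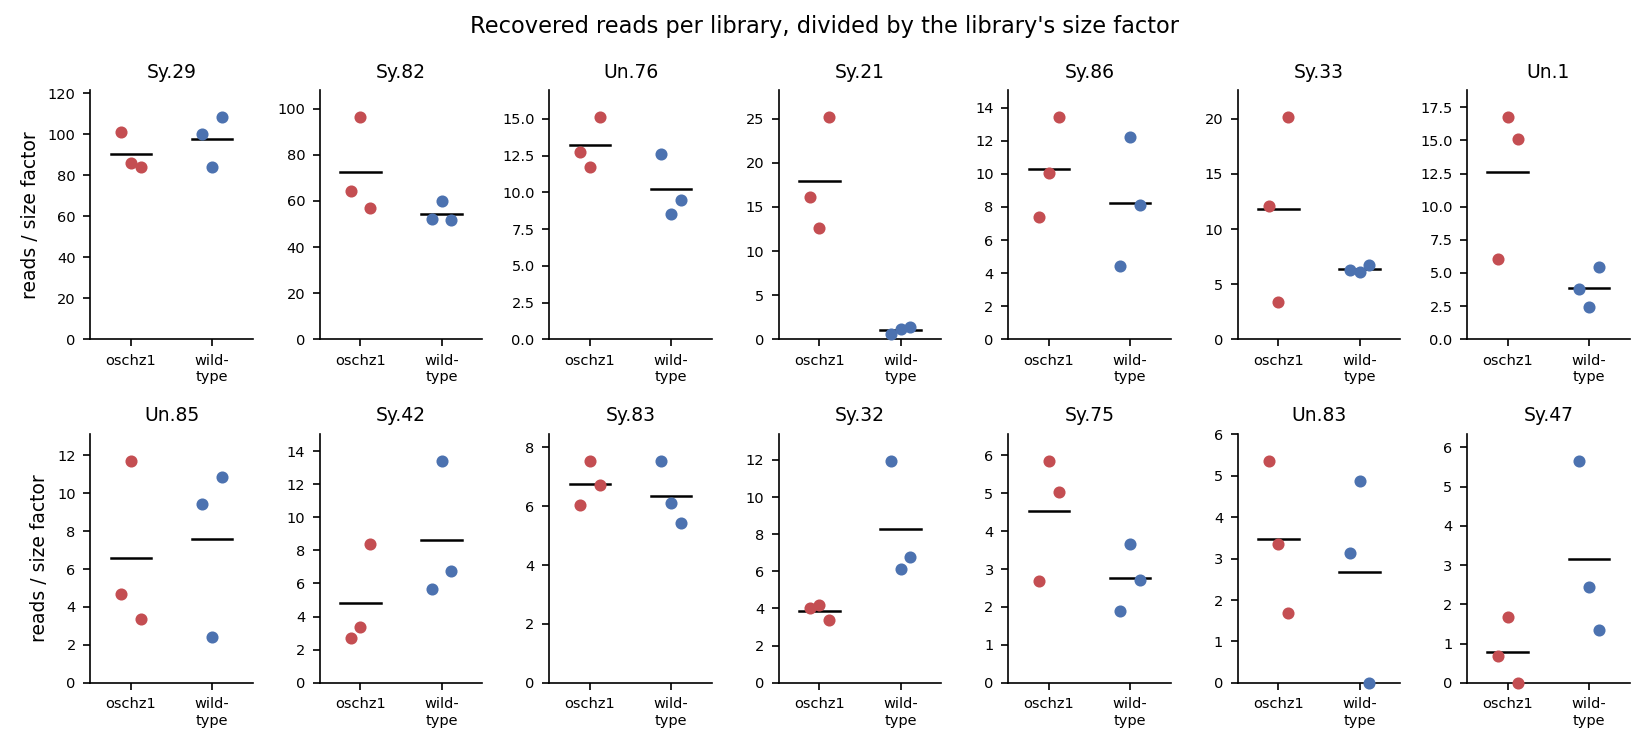
Reads of each library divided by its size factor for the 14 tested predictions whose reads could be read back, in order of the mean, with oschz1 at the left and wild-type at the right of each panel. Points are the 3 libraries of a genotype and lines their means. Each panel has its own axis from 0, and the genotypes are apart in the panels of Sy.21, Un.1 and Sy.32. The panel of Sy.29 shows 1 of 2 possible sets of reads.

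The 18 predictions without an adjusted p were measured by 2 to 8 reads each over all 6 libraries, with a median of 3.5. Exactly 2 reads, the fewest of any row in the table, were held by 7 of them. Reads were found in 1 to 5 of the libraries. Both genotypes had reads of 11 predictions, oschz1 alone of 4 and wild-type alone of 3.

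The same counts were made over the low chromosomal loci, as a description with no test. Exactly 2 reads were held by 38.9% of the 18 predictions, against 26.0% of the 4057 chromosomal loci without an adjusted p, whose median was 4 reads. At most 3 reads were held by 50% of the predictions, against 42.2% of those loci. Both genotypes had reads of 61.1% of the predictions, against 62.7% of those loci. Reads in oschz1 alone were found for 22.6% of the loci and in wild-type alone for 14.7%.

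Summed over the 18 predictions there were 44 reads in oschz1 and 30 in wild-type. With the summed size factors of 3.28 for oschz1 and 3.15 for wild-type, the ratio was 1.41. Its exact 95% interval of 0.865 to 2.32 included equal levels, but it pools reads of different predictions and libraries and covers counting error only. The same ratio over the 4057 loci was 1.17. Library by library, the summed levels of the 18 predictions ran from 8.37 to 20.1 in oschz1 and from 8.18 to 12.2 in wild-type, which overlap. Of the 3 with most reads, Sy.6 held 4, 1 and 1 reads in oschz1, against 2, 0 and 0 in wild-type. Sy.18 held 5, 1 and 0 reads in oschz1, against 2, 0 and 0 in wild-type. Un.69 held 4, 1 and 0 reads in oschz1, against 1, 2 and 0 in wild-type, so that in each of these the libraries of the genotypes overlapped.

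Predictions with consecutive numbers did not generally have like levels. Of 14 pairs of consecutive numbers among the 41, 6 pairs had means at least 10-fold apart and 2 had means within 1.5-fold. Other pairs of predictions and pairs of chromosomal loci were not counted. Whether neighbours by number differ from other pairs was therefore not tested. Sy.37, at a mean of 1052, followed Sy.36 at 0.427, and Sy.25, at 221, was followed by Sy.26 at 0.763. Sy.74, which was called lower in oschz1, was followed by Sy.75 at a mean of 3.64, with a fold change above 0 that did not pass. Sy.21, which was called higher, was followed by Sy.22 at 0.392, with 2 reads. These pairs were chosen after their values were seen.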

How the data were processed

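The labels name 3 oschz1 and 3 wild-type samples. According to the labels and the study's methods, stranded poly(A) libraries were sequenced from both ends, trimmed with cutadapt and aligned with HISAT2, unique alignments were kept with SAMtools, the authors assigned reads to genes with featureCounts and compared genotypes with DESeq2. The annotation is that of MSU. The use of strand in counting is not stated in the sources read, so that overlapping or antisense models may share reads. Unique alignment lowers the values of models with near-identical copies.

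All values come from the table that the authors deposited for this comparison. Its mean normalized count is a signal, reads over size factors, averaged by the authors across the 6 libraries. Fold changes and SEs are deposited on the log2 scale, the statistic is the deposited score of the Wald test, and the deposited p-values are two-sided. The main test is the authors' own, since no column of single libraries was used. The sign was taken from the numbers of rows past the thresholds in each direction, 1619 and 348. The adjusted p equals that of Benjamini and Hochberg over the 25945 rows that have one. 95% intervals are the fold change with its normal interval.

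A mean is a sum of whole reads, each read of a library adding a fixed amount. These amounts were found from the lowest means. All 2243 rows with a mean under 0.7 were such sums within 3e-09. For each of the 7912 rows with a mean under 12, exactly 1 set of whole reads gave the mean and, with the fold change refitted to the deposited SE, the deposited fold change within 0.0001. The genotype of a library follows from the sign of the fold change of rows whose reads are all in it, and its replicate number is not known. Of the predictions, 32 were read back and 9, with means of at least 221, were not. Sy.29 had 2 such sets, of which the one nearer to equal levels within a genotype was used. The procedure was tested on simulated data of low rows, where the reads of 300 of 300 rows drawn from 5542 simulated rows were read back as drawn. The simulated fold changes and SEs came from the same fit that was used to match them. The simulation therefore cannot show whether this fit equals that of the authors. The 2 predictions read back at means above 12, Sy.29 among them, were matched to the deposited fold change within 1e-05. The simulated test did not cover these 2.

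Named predictions are those called, the 10 with the highest means, the 5 tested with the largest fold change in each direction and the 3 untested with most reads. The predictions, lists and rules were chosen with earlier results of these data known. Alternatives were the thresholds, the low-count filter, centring of fold changes, reads in place of the fit and leaving out each library. Comparison with loci within 10% of the mean was added after the data were seen. Python 3.11.15, numpy 2.4.6, pandas 2.3.3 and scipy 1.17.1 were used.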

Additional observations from a re-analysis of the deposited data

How the results depend on the processing

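The calls of Sy.74 and Sy.21 held at adjusted p thresholds of 0.01 and 0.1, at a 2-fold threshold and with no fold threshold. They also held without the low-count filter and with fold changes centred on the median. A looser adjusted p or no fold threshold can only add calls. The outcomes at 2-fold and at 0.01 follow from the fold changes and adjusted p given above. With a minimum mean of 10, the number of predictions called higher in oschz1 was 0, because Sy.21 was then not tested, while 1 remained called lower. Over the tested predictions alone the median of the mean normalized counts was 11.7. The median log2 fold change of the tested predictions was 0.02 as deposited and over all 41 rows, and -0.03 with a minimum mean of 10. Of 103 other values of the 21 named predictions, 102 differed from the deposited fold change by less than its SE. Sy.82 without 1 oschz1 library moved to 0.16, against 0.44 as deposited and 0.41 from the reads of all 6 libraries. Part of that move is thus the change from the fit to reads. Much of this count was fixed in advance. Centring shifted all values by the same small amount, and the reads had been read back so as to match the deposited fold changes. Errors at low counts were wide, so that even a change of sign, as for Un.69 below, stayed within them. Leaving out single libraries gave log2 ratios from -1.29 to 1.90 for Un.69, from -0.003 to 2.32 for Sy.18 and from 1.46 to 2.38 for Sy.6, all untested. For Sy.18 and Sy.6 the ratio without 1 wild-type library had no value, since no wild-type read was left, so that their ranges cover 5 of 6 libraries. Among the tested predictions named by rule and not called, the widest ranges were -3.23 to -1.28 for Sy.47, -1.51 to -0.37 for Sy.42 and 0.27 to 1.33 for Sy.33. Leaving out libraries was not run for the 9 predictions whose reads could not be read back, Sy.74 among them. No paired analysis was possible because the values of single libraries carry a genotype but no replicate number.

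The errors of the fold changes and the few reads limit most of these comparisons. How much of the errors came from depth was not tested. The predictions with means under 12 could show only large differences, and the 18 untested ones allow no statement on a single prediction. For the 9 with the highest means only the authors' fitted values were at hand.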
